A study of Mus musculus with 19 samples.

Results

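Crypt cells of the regenerating mouse colon were compared with resting colonic stem cells across all 24062 genes of the deposited count table, of which 13911 had enough counts to be tested. The comparison held 5 bulk RNA libraries, 3 of resting stem cells and 2 of regenerating crypt cells, of the 19 samples analysed in the series. Both groups came from colon epithelium of mice of a mixed C57BL/6 129/Sv background, labelled wild type, and both carried the population label Ascl2(mCh); Lgr5Dtr-Egfp+, that is, an mCherry reporter of Ascl2 and an Lgr5 allele carrying a diphtheria toxin receptor and EGFP. The protocol gives intraperitoneal diphtheria toxin at 50 ug/kg, every other day for 4 injections, for the killing of stem cells, and sorting on mCherry or GFP. The protocol text is the same for every sample. It gives neither the day on which the bulk regenerating cells were harvested nor the gate of each group. The toxin was taken here as given to the mice of the 2 regenerating libraries and not to those of the 3 resting ones. A further 2 libraries, of Ascl2Fl/Fl; Lgr5EGFP-Cre+ stem cells in which Ascl2 had been deleted with tamoxifen, also entered the fit: they added to its estimate of the spread between libraries and to its filter on low counts, and their levels are not compared here. Nothing in the labels says that replicates were separate animals, so p-values measure only the spread between these libraries.

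The colonic crypt is a pit of epithelium whose base holds Lgr5-positive stem cells, kept there by Wnt signals and marked by the transcription factor Ascl2. Between the stem cells sit deep crypt secretory cells, the colon's counterpart of Paneth cells, which make Reg4 and supply the stem cells with signals such as Notch ligands. Daughter cells with active Notch become absorptive colonocytes, and those that escape it switch on Atoh1 and become secretory cells, goblet cells above all. When the Lgr5-positive cells are killed, the crypt is refilled by other epithelial cells.

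Gene counts ran from 26013572 to 27237804 per resting library and were 30074569 and 28071012 in regenerating replicates 1 and 2. Between 12927 and 14314 genes had counts in the resting libraries, against 16500 and 17517 in the regenerating ones. The sex of the mice differed between libraries: Xist, an RNA of female cells, was at 28.5, 0.292 and 18.2 CPM (counts set relative to the TMM-adjusted size of each library) in the resting libraries and at 0.0299 and 0.0322 CPM in the regenerating ones. Eif2s3y, a gene of the Y chromosome, was at 0, 41.6 and 27.6 CPM and at 53.4 and 68.8 CPM, so that resting replicates 1 and 2 came from different mice. Resting replicate 3 had both Xist and Y-linked RNA (Ddx3y, also Y-linked, at 12.8 CPM), so it held RNA of both sexes. Whether mice had been pooled was not tested. The part of sex in the results below was not tested beyond a fit with Xist as a term. Epcam, an adhesion protein of epithelial cells, was high in every library (2813, 1887 and 2917 CPM resting, 2447 and 2648 CPM regenerating).

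The most abundant genes called higher in the regenerating libraries were secreted products such as Spink4 and Reg4, and the genes called lower held the stem cell genes Sox4 and Smoc2. At an adjusted p under 0.05 (edgeR's quasi-likelihood test, Benjamini-Hochberg over all genes tested), 42 genes were higher in regenerating cells, which is 0.302% of those tested, and 4 were lower, which is 0.0288%. The called rises ran from 1.35 to 8.75 on the log2 scale, with a median of 2.67, while the median of all genes was 0.0113. The 8.75 was that of Lum, which had no counts in resting cells, and the next largest rise was 6.81, for St6galnac1. Together the 42 genes took 0.818% to 1.23% of all gene counts in the resting libraries and 5.38% and 7.78% in regenerating replicates 1 and 2. Another count model, DESeq2, called 244 higher (1.79% of the 13638 genes with an adjusted p) and 128 lower (0.939%), among them all 46. Several genes given below with only an edgeR value over the threshold were also DESeq2 calls, such as Best2 and Meg3 (DESeq2 adjusted p = 2.19e-08 and 4.64e-07). The edgeR count rested on single libraries: it fell to 1 without resting replicate 1 (Cma1 alone), to 1 without regenerating replicate 2 (Nov alone), to 20 and 17 without knockout replicates 1 and 2, to 6 when the knockout libraries were left out of the fit, and to 1, Mmp7, with Xist as a term. In all these fits each of the 46 genes kept its direction. That was largely fixed beforehand, since all 46 had both regenerating libraries outside the resting range.

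**Figure D1:**
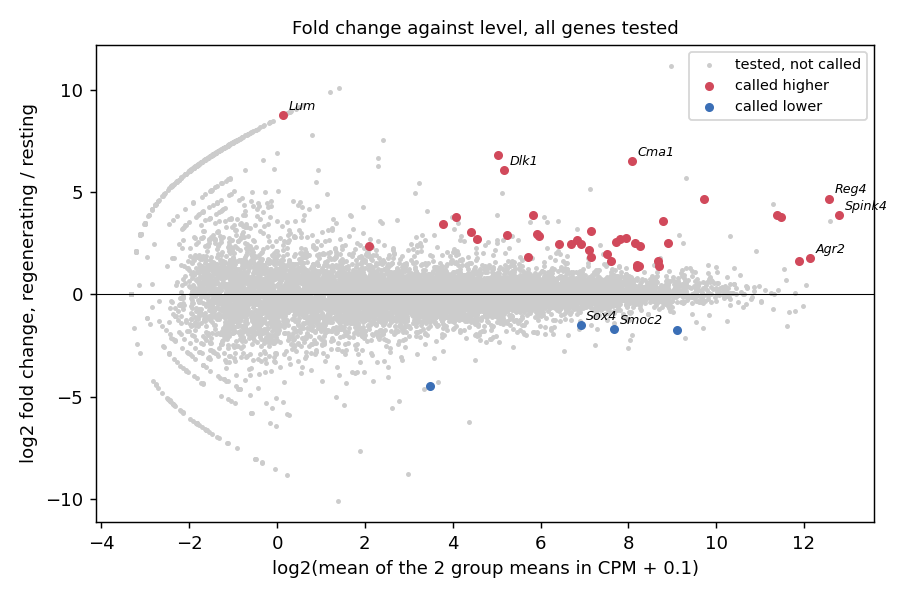
Each point is 1 of the 13911 genes tested, placed by the log2 of its mean level (average of both group means in CPM, plus 0.1) and its fitted log2 fold change, regenerating over resting; red and blue mark the 42 genes called higher and the 4 called lower. The called rises lie among the most abundant transcripts as well as the rare ones. Reg4 and Spink4 are at the far right and Lum is at the left, with a mean of 2.01 CPM regenerating and 0 resting.

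Upstream sequences of some of the genes that rose are shown first, because these genes include secreted products and a few genes of protein folding and export, for which a DNA element is known. The letters ACGTGG form the core of elements bound by the stress factors XBP1 and ATF6, and CAGCTG is an E-box of the kind bound by ASCL-family factors. Both were searched on both strands in RefSeq promoter windows of GRCm38.p6, from 250 bases before to 50 bases after a transcript's start; the motifs were counted separately. Of the 42 genes that rose, 34 had a window. ACGTGG was found for 9 of them, 26.5%, against 9.395% of all 27025 genes with windows: Reg4, Rnf39, B3galt2, Hgfac, Kdelr3, Cgref1, Fkbp11, Smim14 and Tmed3. CAGCTG was found for 8, 23.5%, against 18.3% of all genes. The 27025 genes include many that were not tested here, so the shares come from unlike sets, and the motifs were chosen with the called genes known. A match describes the letters and shows no binding. The stretches around ACGTGG before the transcript starts of 4 genes are given 5′ to 3′ on the gene's strand, with the motif or its reverse complement in capitals.
Reg4, chr3:98221906-98221968, plus strand: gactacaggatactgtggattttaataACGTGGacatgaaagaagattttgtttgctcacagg
Kdelr3, chr15:79516348-79516407, plus strand: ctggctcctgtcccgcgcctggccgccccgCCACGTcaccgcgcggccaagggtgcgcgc
B3galt2, chr1:143640642-143640696, plus strand: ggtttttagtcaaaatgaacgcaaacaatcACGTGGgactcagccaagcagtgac
Tmed3, chr9:89705209-89705274, minus strand: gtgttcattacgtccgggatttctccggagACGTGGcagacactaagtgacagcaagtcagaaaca
The motif began 223 bases before the transcript start of Reg4 in this window (98222156, inside the span of the gene), 201 before that of Tmed3, 30 before that of Kdelr3 and 25 before that of B3galt2.

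The most abundant of the called rises were mostly secreted products. Reg4, a secreted C-type lectin that marks deep crypt secretory cells (chromosome 3, 98222138 to 98236748 in GRCm38), was at 342, 344 and 704 CPM in the resting libraries and 9192 and 14317 CPM in the regenerating ones. Spink4, a small protease-inhibitor-like peptide of goblet and deep crypt cells, was at 847, 456 and 1428 CPM against 10349 and 16303 CPM. Ccl6, a chemokine, was at 398, 203 and 564 CPM against 4966 and 5732 CPM. In each of the 3 the lowest regenerating library was several times the highest resting one, and replicate 2 was the higher of the regenerating pair. The fitted log2 fold changes were 4.66 ± 0.47 (SE) for Reg4, 3.87 ± 0.49 for Spink4 and 3.78 ± 0.43 for Ccl6, with edgeR adjusted p of 0.0124, 0.0204 and 0.0177. Sval1, a seminal-vesicle-antigen-like secreted protein, was at 326, 139 and 566 CPM resting and 4256 and 5777 CPM regenerating. Agr2, a disulfide isomerase needed for making mucin, started from a high resting level of 2278, 1518 and 2343 CPM and reached 5322 and 8535 CPM. Oit1, a secreted protein of the FAM3 family, went likewise from 1819, 1791 and 1994 CPM to 5195 and 6329 CPM.

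Among the other rises with the largest folds were a protease, a glycosyltransferase, a matricellular protein and a Notch-ligand-like protein. Cma1, a chymase best known from mast cells and also made by deep crypt cells (chromosome 14, 55941451 to 55944675), was at 2.20, 5.58 and 9.93 CPM in resting cells and 599 and 467 CPM in regenerating cells, a log2 fold change of 6.50 ± 0.62 (SE). Of 12 mast cell markers 6 had enough counts to be tested; Cma1 was the 1 edgeR call, and DESeq2 also called Kit higher (16.6, 18.3 and 20.4 CPM against 45.4 and 70.2 CPM, DESeq2 adjusted p = 0.0161). Cpa3 and Tpsab1 were among the 6 with too few counts, and Tpsb2 was at most 1.20 CPM in any of the 5 libraries. The part of mast cells in these values was not tested. St6galnac1, which adds sialic acid to mucin O-glycans (chromosome 11, 116765025 to 116775507), was at 0, 0.555 and 1.16 CPM against 68.8 and 59.6 CPM. Nov, the CCN-family matricellular protein CCN3 (chromosome 15, 54745910 to 54753762), was at 52.9, 58.7 and 83.0 CPM against 999.7 and 2259 CPM. Dlk1, an imprinted membrane protein related to Notch ligands, was at 0.939, 0.731 and 1.54 CPM against 102 and 40.3 CPM. No regenerating library overlapped the resting range for any of these 4 genes, and for Dlk1 and Nov the 2 regenerating libraries differed from each other more than 2-fold.

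Channels, receptors and enzymes followed. Itpr1, the inositol trisphosphate receptor that releases calcium from the endoplasmic reticulum, was at 5.90, 5.99 and 10.1 CPM resting and 92.2 and 122 CPM regenerating. Kcnma1, the calcium-activated potassium channel, was at 1.88, 1.34 and 3.67 CPM against 17.5 and 32.1 CPM. Ttyh1, a tweety-family membrane protein, was at 2.64, 2.48 and 1.73 CPM against 20.04 and 42.7 CPM. All 3 were at 10.1 CPM or less in the resting libraries and were detected in every library. Ramp1, the partner protein of the receptor for calcitonin gene-related peptide, was at 57.3, 46.8 and 98.1 CPM against 792 and 831 CPM. Hpd, an enzyme of tyrosine breakdown, was at 19.7, 19.9 and 48.8 CPM against 197 and 310 CPM. Fcna, a lectin of innate defence, was at 4.14, 4.27 and 5.47 CPM against 28.1 and 47.4 CPM. Rnf39, a RING-finger protein, was at 9.19, 17.9 and 13.9 CPM against 92.02 and 121 CPM. Ramp1 had the closest regenerating pair of these 4, and Rnf39 had its highest resting value in replicate 2. Lum, a proteoglycan of connective tissue, had no counts in any resting library and 2.24 and 1.77 CPM in the regenerating ones, at least 67.0-fold higher at a floor of 3 counts over the resting group.

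The remaining called rises were smaller, from 1.35 to 2.90 on the log2 scale. They held the goblet regulator Spdef (2.77 ± 0.35), the transport protein Slc12a8 (2.65 ± 0.29), the sulfhydryl oxidase Qsox1 (2.58 ± 0.37), the protease Hgfac (2.496 ± 0.33), the adhesion protein Hepacam2 (2.48 ± 0.32) and the phosphatase Ptpro (2.46 ± 0.30). The receptor Gpr20, the phospholipase Pla2g2f, the galactosyltransferase B3galt2, Gm1123, the lipid phosphatase Ppap2a and Cgref1 lay between 2.38 and 2.90. Cxcl2, a chemokine that draws neutrophils, rose from 0.91, 1.17 and 1.98 CPM to 8.01 and 5.99 CPM. Atp2c2, a calcium and manganese pump of the Golgi (1.99 ± 0.27), Slc50a1, a sugar transporter (1.62 ± 0.22), Smim14 (1.61 ± 0.25), the proton pump accessory protein Atp6ap2 (1.37 ± 0.20) and the selenoprotein Selm (1.35 ± 0.21) completed them, beside the folding and glycosylation genes described below. Of the 42 rises, 36 were higher in regenerating replicate 2 than in replicate 1, with a median ratio of 1.499, and 34 had their highest resting value in replicate 3.

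**Figure D2:**
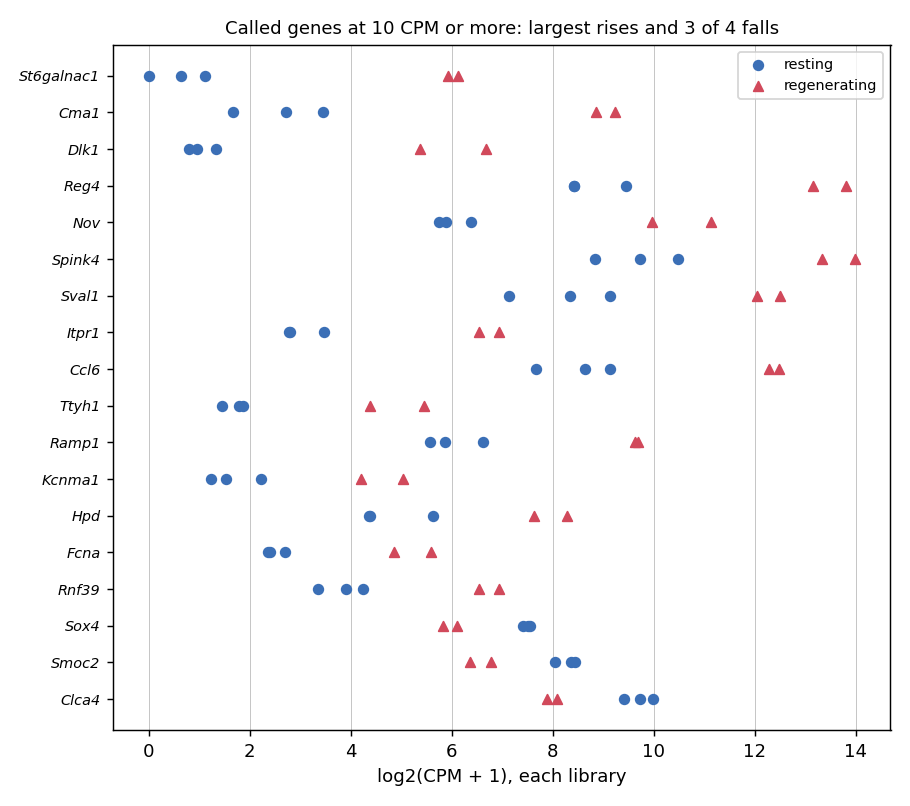
Each row is a called gene whose higher group averaged 10 CPM or more (the 15 largest rises, then 3 of the 4 falls) and each point is 1 library, at log2(CPM + 1): circles are the 3 resting and triangles the 2 regenerating libraries. The triangles lie outside the range of the circles in every row, and the resting libraries spread most for Spink4, Sval1 and Ccl6 among the abundant genes.

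The genes of the secretory route were then followed by their roles, in lists chosen with earlier results of these data known, so that the counts describe the lists and support nothing further. Over all genes tested, 17.6% had both regenerating libraries above all 3 resting libraries and 11.3% had both below. Of 17 genes of deep crypt secretory products, 6 were called higher (Reg4, Spink4, Agr2, Cma1, Ccl6 and Nov), 14 lay above the resting range and none below, and the median log2 fold change was 2.51; DESeq2 called 11 higher. Muc2, the gel-forming mucin, was at 346, 109 and 479 CPM against 1013 and 3483 CPM, and its rise of 2.85 ± 0.62 did not pass (edgeR adjusted p = 0.125, DESeq2 0.0123). Lyz1, the Paneth cell lysozyme, was at 15.9, 3.33 and 8.32 CPM against 192 and 60.8 CPM (edgeR adjusted p = 0.137). The receptor Kit, used to isolate deep crypt secretory cells, was at 16.6, 18.3 and 20.4 CPM against 45.4 and 70.2 CPM (edgeR adjusted p = 0.191). The summed level of the list was 3260 to 6501 CPM in the resting and 33681 and 54511 CPM in the regenerating libraries. Without regenerating replicate 2 the median of the list was 1.62. In bulk RNA, more cells of a type and more RNA per cell cannot be told apart.

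Goblet cell genes moved unevenly. Of 28 tested, 3 were called higher (Agr2, Spink4 and Slc12a8; 9 with DESeq2), 13 lay above the resting range, 1 below, and the median was 1.36, or 0.59 without regenerating replicate 2. Best2, a bicarbonate channel of colonic goblet cells, was at 6.66, 6.43 and 25.5 CPM against 102 and 208 CPM (edgeR adjusted p = 0.0705). Tpsg1, a transmembrane tryptase, was at 27.4, 6.81 and 32.2 CPM against 146 and 263 CPM (0.0636). Itln1, an intelectin that binds microbial sugars, stood at 117 CPM in one regenerating library and 2369 CPM in the other, so that its log2 fold change of 5.68 ± 1.38 carried a wide error (edgeR adjusted p = 0.167). Rep15, a Rab15 partner of goblet cells, was at 62.0, 14.99 and 77.4 CPM against 204 and 351 CPM (0.143). Zg16, an abundant mucus lectin, overlapped between the groups, at 868, 153 and 2020 CPM against 711 and 1936 CPM.

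Enzymes that build mucin O-glycans lay mostly higher. Of 37 tested, 2 were called higher (St6galnac1 and St3gal6, both sialyltransferases; 12 with DESeq2), none lower, 23 lay above the resting range and none below, and the median was 0.67. St3gal6 went from 178, 143 and 180 CPM to 461 and 422 CPM, a log2 fold change of 1.40 ± 0.21 with an edgeR adjusted p of 0.0335. St6galnac6, of the same sialyltransferase family as St6galnac1 but far more abundant, was at 392, 578 and 478 CPM against 1034 and 1608 CPM (0.0867). B3gnt6, which makes the core 3 O-glycan of colonic mucin, was at 4.43, 5.64 and 19.6 CPM against 31.4 and 113 CPM (0.166), and B3gnt7 was at 521, 780 and 687 CPM against 903 and 1466 CPM (0.286). Galnt5, which starts O-glycans, was at 3.52, 0.205 and 4.81 CPM against 10.7 and 19.6 CPM (0.443).

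Protein entry into the endoplasmic reticulum and folding there showed small shifts spread over many genes. Of 57 tested, 2 were called higher (Kdelr3 and Dnajc10; 9 with DESeq2), none lower, 33 lay above the resting range and none below, and the median was 0.42, or 0.22 without regenerating replicate 2 and 0.23 when libraries were scaled by size alone. Kdelr3, a receptor that returns escaped chaperones from the Golgi, was at 23.4, 22.5 and 33.2 CPM against 109 and 179 CPM (2.45 ± 0.28, edgeR adjusted p = 0.0177). Dnajc10, a reductase that helps remove misfolded proteins, was at 57.0, 65.5 and 62.7 CPM against 172 and 271 CPM (1.84 ± 0.23, 0.0203). Fkbp11, a proline isomerase of secretory cells called outside this list, was at 22.04, 21.9 and 25.4 CPM against 63.1 and 100.2 CPM. The most abundant members did not pass with edgeR: the disulfide isomerase P4hb had a log2 fold change of 0.87 ± 0.20 (adjusted p = 0.144, but 0.00677 with DESeq2), Pdia3 of 0.49 ± 0.24, the oligosaccharyltransferase subunit Ddost of 0.60 ± 0.20 and the chaperone Hspa5 of 0.32 ± 0.32. Hspa5 overlapped between the groups, at 1553, 2004 and 904 CPM against 1588 and 2116 CPM.

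Regulators of the unfolded protein response, the signalling that matches folding capacity to load, gave 1 call among 18 tested (5 higher with DESeq2), with 9 above the resting range, none below and a median of 0.77, or 0.41 without regenerating replicate 2. The call was Creb3l4, a membrane-bound transcription factor released in the Golgi, at 49.5, 30.7 and 71.02 CPM against 190 and 257 CPM. Ern2, the IRE1 isoform of mucus-secreting epithelia, was at 75.9, 107 and 109 CPM against 199 and 364 CPM (edgeR adjusted p = 0.0800). Xbp1, whose message IRE1 splices, was at 469, 587 and 410 CPM against 876 and 926 CPM (0.164), and Atf4, the factor of the PERK branch, was at 144, 207 and 145 CPM against 325 and 329 CPM (0.177). Among vesicle coats and Golgi transport genes, 1 of 36 was called higher (4 with DESeq2), 22 lay above the resting range and 1 below, with a median of 0.39, or 0.20 with scaling by library size alone. That gene was Tmed3, a cargo receptor of coated vesicles, at 151, 153 and 171 CPM against 386 and 470 CPM. Copz2, a coatomer subunit, was at 13.4, 3.92 and 11.6 CPM against 37.5 and 71.6 CPM (0.0874), while Surf4 and Sec13 differed by 0.67 ± 0.22 and 0.38 ± 0.19. None of 18 granule exocytosis genes was called by edgeR (2 by DESeq2), although 8 lay above the resting range. Rab3d, a GTPase of secretory granules, came closest at 200, 221 and 203 CPM against 361 and 536 CPM (0.0943), and Sytl2, a Rab27 effector, was at 2.76, 1.34 and 12.2 CPM against 20.01 and 44.9 CPM (0.301).

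Of 17 transcription factors of the secretory lineage, 2 were called higher (6 with DESeq2), 10 lay above the resting range and 1 below, and the median was 0.44. That median was 0.24 with scaling by library size alone, 0.86 without resting replicate 2 and 0.72 without resting replicate 3. Spdef, which drives goblet maturation (chromosome 17, 27714446 to 27731003), was at 71.6, 43.0 and 74.1 CPM against 275 and 585 CPM. The other was Creb3l4. Atoh1, the factor that commits cells to the secretory lineage, is named here after its values were seen: it was at 80.5, 34.5 and 77.7 CPM against 212 and 229 CPM and missed the threshold (1.78 ± 0.33, edgeR adjusted p = 0.0809, DESeq2 9.14e-05). Bhlha15, a factor of zymogen-secreting cells, was at 2.11, 5.11 and 1.19 CPM against 11.5 and 30.3 CPM (0.245), and Gfi1, which acts after Atoh1, was at 2.55, 1.20 and 7.16 CPM against 9.48 and 21.8 CPM (0.438). Of the 4 most abundant members, Xbp1 differed by 0.88 ± 0.21 (edgeR adjusted p = 0.164, DESeq2 0.0118), Ehf by 0.35 ± 0.20, Creb3l1 by 0.17 ± 0.33 and Sox9 by 0.10 ± 0.22.

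**Figure D3:**
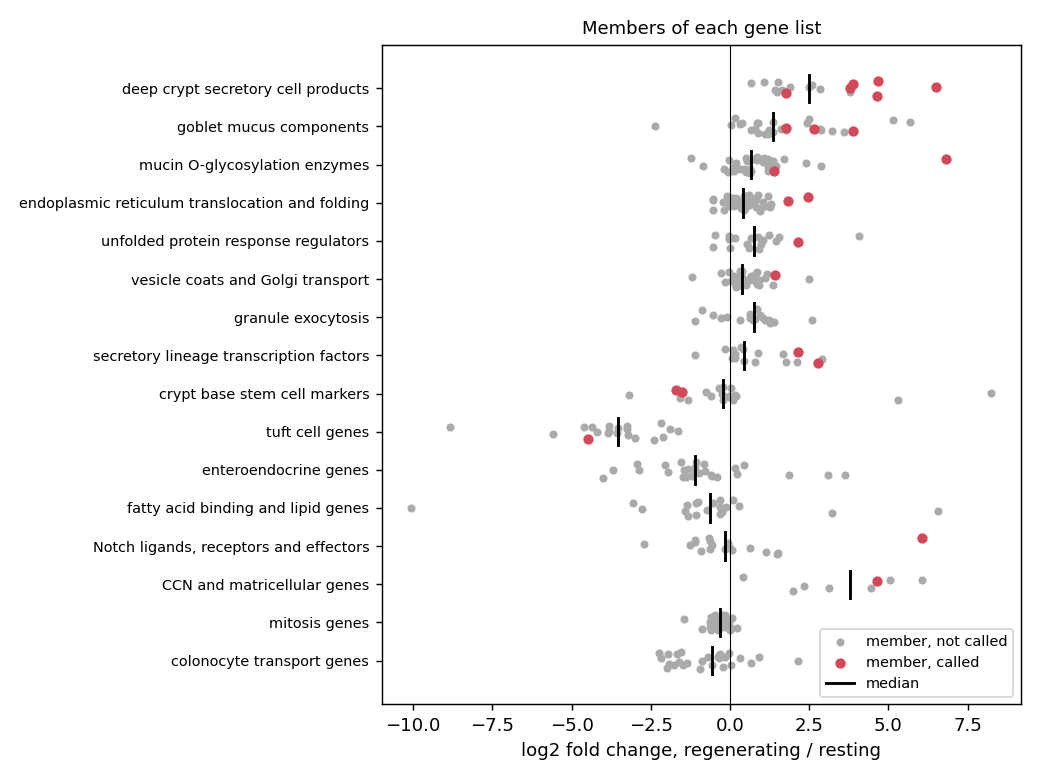
Each point is a tested member of a gene list at its fitted log2 fold change, regenerating over resting; red points were called, black bars are list medians and vertical scatter has no meaning. Secretory lists lie to the right of 0 with medians from 0.39 to 2.51, and tuft cell genes lie wholly to the left with a median of -3.54.

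Stem cell genes split. Of 20 crypt base stem cell markers tested, 2 were called lower, none higher (4 and 1 with DESeq2), 7 lay below the resting range and 1 above, with a median of -0.23, or -0.43 with scaling by library size alone and -0.0869 without resting replicate 2. Sox4, a transcription factor of progenitor cells (chromosome 13, 28948919 to 28953699), was at 181, 169 and 186 CPM in resting cells and 68.2 and 56.2 CPM in regenerating cells (-1.52 ± 0.21, edgeR adjusted p = 0.0223). Smoc2, a matricellular marker of Lgr5-positive cells (chromosome 17, 14279490 to 14404790), was at 347, 329 and 264 CPM against 81.7 and 109.6 CPM (-1.71 ± 0.23, 0.0204). Lgr5 itself, on whose allele the toxin receptor sits, was at 41.9, 53.5 and 27.9 CPM against 1.79 and 7.18 CPM and did not pass with edgeR (-3.20 ± 0.69, adjusted p = 0.125; DESeq2 8.03e-06). Ascl2 was at 110, 151 and 104 CPM against 85.7 and 57.0 CPM (-0.77 ± 0.26, edgeR adjusted p = 0.316), so that its message was still present in the regenerating libraries. Cells were sorted on mCherry, the reporter of Ascl2, or on GFP, carried by the Lgr5 allele. The part of that sort in the levels of Ascl2 and Lgr5 was not tested. The third fall was Clca4, a symbol that 2 RefSeq genes of the Clca family share as a former name, at 850, 1016 and 680 CPM against 237 and 272 CPM (-1.74 ± 0.24, 0.0221). For Sox4, Smoc2 and Clca4 the highest regenerating value was below the lowest resting one by more than 2-fold. None of the 4 falls was called without resting replicate 1, without either regenerating library or without either knockout library.

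Tuft cells are rare chemosensory cells of the gut epithelium that signal through Trpm5 and make eicosanoids. All 20 tuft cell genes tested had negative fold changes, 19 lay below the resting range against 11.3% of all genes, and the median was -3.54. With edgeR 1 of the 20 was called lower, whereas DESeq2 called 12. Trpm5, the taste-cell cation channel, was at 9.01, 17.8 and 8.61 CPM against 0.419 and 0.0644 CPM (edgeR adjusted p = 0.0827). Rgs13, a regulator of G-protein signalling, was at 30.0, 14.03 and 13.7 CPM against 0.0299 and 1.55 CPM (0.191). These levels are low even in resting cells: the summed level of the list was 109 to 181 CPM resting and 9.24 and 16.5 CPM regenerating. Avil, an actin-binding protein of tuft cells (-3.21 ± 0.73), the adaptor Fyb (-3.54 ± 0.76) and the prostaglandin D synthase Hpgds (-2.41 ± 0.58) lay below the resting range without passing, and Pou2f3, the factor that specifies tuft cells, named here because it was the 1 gene that overlapped, was at 0.44, 6.28 and 6.88 CPM against 0.0897 and 0.677 CPM.

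**Figure D4:**
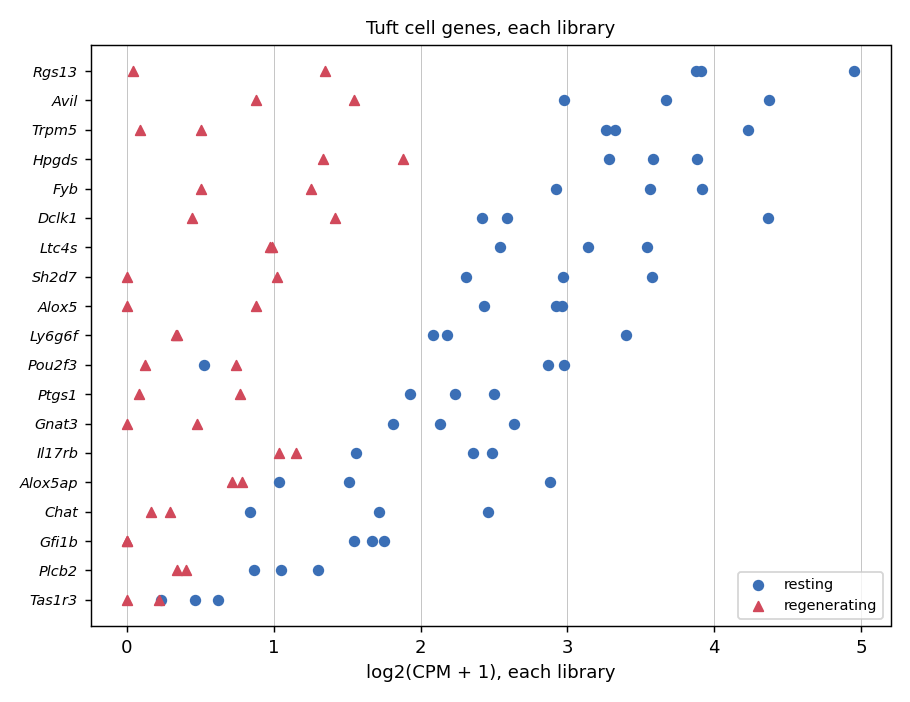
Each row is 1 of 19 of the 20 tuft cell genes tested, ordered by mean resting level, and each point is 1 library at log2(CPM + 1): circles resting, triangles regenerating. The triangles lie left of the circles in 18 rows, and Pou2f3 is the row in which 1 circle lies among the triangles.

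Enteroendocrine genes, of hormone-making cells, gave no call with edgeR among 27 tested and 1 with DESeq2, while 8 lay below the resting range, 2 above, and the median was -1.10, or -0.48 without resting replicate 3. The hormone gene Pyy was at 40.7, 30.9 and 28.7 CPM against 20.04 and 4.22 CPM (edgeR adjusted p = 0.350), and the granule protein Chga was at 15.7, 18.4 and 43.6 CPM against 11.4 and 11.1 CPM (0.409). Chgb and Tac1 overlapped between the groups. Among 20 lipid genes none was called by edgeR and 3 by DESeq2, all lower, with 8 below the resting range, 2 above and a median of -0.62, or -0.36 both without resting replicate 3 and with the Xist term. Apob, the scaffold of lipoproteins, was at 6.84, 14.7 and 16.1 CPM against 0.748 and 2.22 CPM (edgeR adjusted p = 0.184), and Plin2, a lipid droplet coat, differed by -0.52 ± 0.19, whereas Fabp2 overlapped. Colonocyte transport genes (29 tested) had no edgeR call, 5 above and 6 below the resting range and a median of -0.57, or -1.08 without regenerating replicate 2 and -0.15 with the Xist term, and their summed level varied from 4596 to 16564 CPM among resting libraries.

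Notch genes did not move as a group. Of 19 tested, 1 was called, Dlk1, while DESeq2 called 2 higher and 2 lower. Above the resting range lay 5 (17.6% of all genes did) and below it 5 (11.3% of all genes did). The median was -0.16, and it ran from -0.0143 without resting replicate 2 to -0.57 without knockout replicate 2. Hes1, the Notch target that represses Atoh1, was at 287, 405 and 305 CPM against 177 and 131 CPM (-1.11 ± 0.24, edgeR adjusted p = 0.137, DESeq2 0.000643). Nrarp, a feedback inhibitor that Notch switches on, was at 69.9, 134 and 55.3 CPM against 39.1 and 32.7 CPM (edgeR adjusted p = 0.250, DESeq2 0.0268). Dlk1 also belongs to the list of oncofetal and imprinted growth genes, where it was the 1 call among 16. Meg3, the noncoding RNA of the same imprinted cluster, was at 0.0294, 0 and 0.126 CPM against 5.29 and 15.4 CPM (edgeR adjusted p = 0.0827), and Cdkn1c, an imprinted inhibitor of the cell cycle, was at 30.8, 60.3 and 24.7 CPM against 9.12 and 10.2 CPM (0.144). Igf2bp2, an RNA-binding protein of fetal growth, was at 34.1, 32.3 and 30.4 CPM against 7.63 and 17.7 CPM (0.249).

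Of 8 CCN and matricellular genes tested, Nov was called, 7 lay above the resting range and the median was 3.79, or 3.24 with genes at 0 in resting cells set to their bound. Several of these sit near the limit of detection. Thbs1, a thrombospondin that activates TGF-beta, was at 35.3, 130 and 41.2 CPM against 238 and 306 CPM (edgeR adjusted p = 0.198), and Sparc was at 0.264, 0.175 and 0.974 CPM against 3.83 and 4.38 CPM (0.140). Lum and Sparc are also made by fibroblasts: 1 of 21 stromal and matrix markers tested was called (Lum), 10 lay above the resting range, 8 had no counts in resting cells, and the summed level was 19.1 to 52.3 CPM resting against 31.3 and 26.0 CPM regenerating. For 19 leukocyte markers the summed level was 3.27 to 63.8 CPM resting against 38.8 and 27.7 CPM regenerating, with no call. The part of such cells in these values was not tested. The filter on low counts used all 7 libraries, so a gene without resting counts could be tested only if another group held it. The counts above the resting range and the medians of these lists are therefore partly set by the filter. Bmp3, a BMP ligand, was at 15.4, 12.1 and 20.2 CPM against 1.47 and 2.71 CPM. Its log2 fold change of -2.93 ± 0.68 did not pass with edgeR (adjusted p = 0.144) but did with DESeq2 (0.000465).

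Cell division genes showed small differences. Of 33 mitosis genes none was called by edgeR and 1 by DESeq2, but 30 had negative fold changes and 3 positive ones. Below the resting range lay 7 (11.3% of all genes did) and above it none (17.6% of all genes did), and the median was -0.33. That median ran from -0.62 without regenerating replicate 1 to -0.0862 without regenerating replicate 2, and was -0.12 without resting replicate 1, -0.14 with the Xist term and -0.51 with scaling by library size alone. The mitotic activator Cdc20 differed by -0.46 ± 0.32 and the ubiquitin-conjugating enzyme Ube2c by -0.50 ± 0.34, and both overlapped between the groups. The 34 replication genes had a median of -0.09 and the 49 oxidative phosphorylation subunits a median of -0.05, with no edgeR call in either. Of the 47 lists examined, 16 held a called gene and 31 held none.

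A single-cell library of regenerating cells taken on day 8, sorted as mCherry-positive and GFP-negative, was used to describe the levels of the same transcripts. It held 3438 cells with at least 1000 UMIs (unique molecular identifiers, 1 per captured message) and under 25% mitochondrial UMIs, with a median of 20323.5 UMIs per cell. All 42 rises were in its gene set, and together they took 1.96% of UMIs in cells and 1.93% in near-empty droplets of 10 to 50 UMIs. The level in empty droplets was thus close to that in cells. Pooled levels in CPM, with exact 95% Poisson intervals that cover counting error only, were 160 (157 to 163) for Cma1, 17.3 (16.4 to 18.2) for Ascl2 and 2.09 (1.79 to 2.43) for Lgr5. Lum had 1 UMI in all cells. No resting single-cell library was compared and the series holds 1 such library, so no test was made.

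The cells were ranked by the share of their UMIs that came from Reg4, a choice made after seeing the data. The top 10%, 344 cells, is a range and not a cell type: the limit was at 11785 CPM of Reg4, 262 cells lay within 20% of it, and 1156 cells had no Reg4 UMI. Of the 41 other genes that rose in bulk, 40 had at least 100 UMIs, and 39 of these had a pooled level at least 2-fold higher in the top cells than in the other 3094; Cxcl2 was lower. Of all 11305 genes with at least 100 UMIs, 864 (7.64%) were at least 2-fold higher in the top cells. Spink4 was at 42440 CPM (42248 to 42633) in the top cells and 4378 CPM (4363 to 4393) in the others. In UMIs, Spink4 had 186204 in the top cells and 338558 in the others, and Cma1 had 6759 and 6321. In near-empty droplets Spink4 was at 7626 CPM and Cma1 at 120 CPM, each above its level in the other cells. The part of such background RNA in the contrast was not tested. Cma1 was at 1541 CPM (1504 to 1578) against 81.7 (79.7 to 83.8), Dlk1 at 113 (103 to 123) against 7.44 (6.84 to 8.07) and Nov at 701 (676 to 726) against 62.7 (61.0 to 64.5). The secretory factor Spdef was at 246 CPM (232 to 262) against 33.5 (32.2 to 34.8), and the chaperone receptor Kdelr3 at 99.6 (90.5 to 109) against 18.8 (17.9 to 19.8). Of the genes that fell in bulk, Sox4 and Smoc2 lay the other way. Sox4 was at 19.4 CPM (15.5 to 24.0) against 83.8 (81.8 to 85.8) and Smoc2 at 19.6 (15.7 to 24.2) against 34.8 (33.5 to 36.2). Clca4 was not found in the gene set under that symbol, and the share of all genes lower in the top cells was not computed. Muc2 was at 11098 CPM (10999 to 11197) in the top cells and 1330.1 CPM (1322 to 1338) in the others, and the proliferation marker Mki67 at 41.9 (36.1 to 48.5) against 231 (228 to 235). Markers of other mature cells were nearly absent from the top cells, with 1 UMI each for Car4, Slc26a3 and Chga and 3 for Krt20, while the other cells held 90.0 CPM of the colonocyte gene Car4, 61.9 of Slc26a3, 80.8 of Krt20 and 9.21 of the enteroendocrine gene Chga. Top cells were shallower, with a median of 12667 UMIs against 22395.5, and Epcam differed little, at 2696 CPM (2648 to 2745) against 2332 (2321 to 2342).

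**Figure D5:**
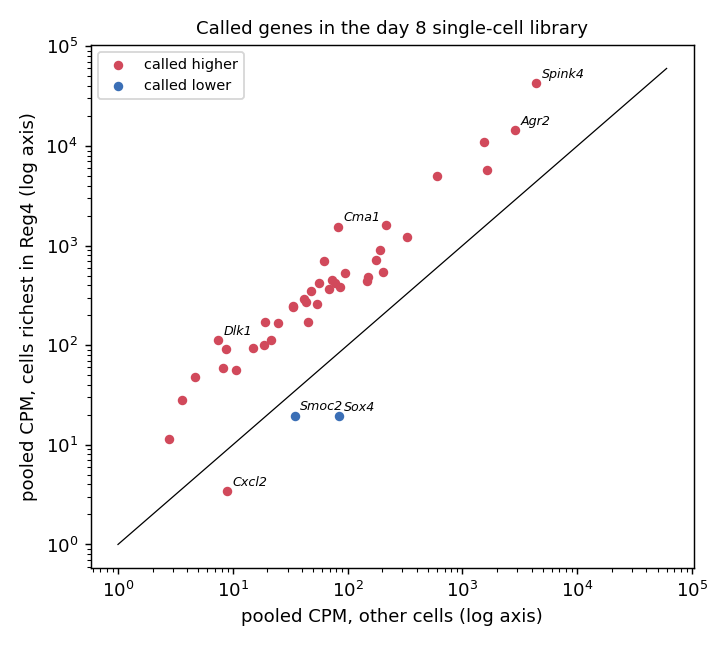
Each point is a called gene of the bulk comparison other than Reg4, at its pooled CPM in the 3094 other cells (log axis) and in the 344 cells richest in Reg4 (log axis) of the day 8 library; the line marks equal levels, and genes without UMIs in either group are not drawn. Points for genes that rose in bulk lie above the line except Cxcl2, and Sox4 and Smoc2 lie below it.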

How the data were processed

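Bulk RNA libraries were made from Trizol-extracted RNA of sorted cells with a SMARTer Universal Low Input kit, per the labels' protocols. In the deposited table each gene symbol has raw read counts, attributed by the submitters' processing notes to STAR 2.5.3a, HTSeq and GRCm38; annotation release and strand setting are not given in the sources used here, so overlapping and antisense genes may share reads. The 5 entries that name no gene (reads without a feature were 5.77% to 8.94% of all reads listed in the 5 libraries compared) stayed out of library sizes and tests. The deposited single-cell file holds UMI counts of unfiltered barcodes, which the submitters' processing notes attribute to Cell Ranger 3.0.2; no doublets were removed here.

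After edgeR's filterByExpr (by group) had dropped weakly detected genes and TMM had set the library scale, regenerating cells were tested against resting cells with the quasi-likelihood test of edgeR 4.0.16 (R 4.3.3, two-sided, Benjamini-Hochberg over 13911 genes, threshold 0.05). All 7 adult libraries entered the fit, with group as the only term, because groups of 2 give little estimate of spread. SE is the absolute log2 fold change over the square root of F. An exact test of 3 against 2 libraries cannot go below 0.2. DESeq2 1.42.0 and limma 3.58.1 were alternatives. Replicates were compared and none was a duplicate. RefSeq coordinates (GRCm38.p6) matched 45 of the 46 called genes.

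Members and gene lists were chosen with earlier results of these data known. Genes named were Ascl2 and Lgr5, every called gene, and in each list its called members, its 4 most abundant members and members apart between the groups by at least 4-fold at a mean of 10 CPM, not all of which are printed; the values of 2 of them, counted in the totals, are not reported here. Same-numbered replicates were not taken as pairs.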

Additional observations from a re-analysis of the deposited data

How the results depend on the processing

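The directions of the 46 called genes were the same in all 16 alternatives, but the number of calls was not. The alternatives reuse the same counts, and all 46 genes lay apart between the groups, so the kept directions add little. The 42 rises and 4 falls became 244 and 128 (372 in all) with DESeq2, 173 and 52 (225) without a filter on low counts, 6 and 0 (6) with the resting and regenerating libraries only, and 1 and 0 (1) with an Xist term. Fits without one library each gave 1 to 39 calls, 1 to 34 rises and 0 to 6 falls; the lowest, 1, came without resting replicate 1 and again without regenerating replicate 2, and the cause was not tested. With the replicate number as a block, which nothing in the labels ties to a shared animal (correlation of same-numbered deviations 0.107 and 0.00964), 47 genes were called, 40 higher and 7 lower, 29 of them among the 46. Scaling by library size alone moved the median of all genes by -0.18. It also turned Creb3l1 to -0.0264, Epcam to -0.171 and Sox9 to -0.0847. Creb3l1 was at -0.15 with the Xist term. Epcam was at -0.0271 with DESeq2, at -0.0272 with RLE size factors, at -0.0254 with the resting and regenerating libraries only, and at -0.00793 with the 5 CPM filter. Leaving out 1 library moved Creb3l1 between -0.30 and 0.51, Epcam between -0.17 and 0.12, Sox9 between -0.0432 and 0.27 and Zg16 between -0.56 and 1.37. The other 97 of 101 genes followed kept their direction throughout. No median of the 16 lists followed changed sign, and 37 of 224 moved by more than the spread between libraries. The 39 single-cell rises stayed 39 with the top 5% or 20% of cells, and the 42 rises' pooled level was 19636 and 19627 CPM in cells with at least 500 or 3000 UMIs, against 19634. With 2 regenerating libraries, small differences are not detectable.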

Other observations

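Genes of antigen presentation differed widely between replicates of 1 group. The summed level of 8 MHC class II genes was 211 to 11740 CPM among the resting libraries and 6880 and 1436 CPM in regenerating replicates 1 and 2. For 30 interferon response genes it was 676 to 2932 CPM resting against 2746 and 1431 CPM, and none of either list was called by edgeR or DESeq2. Of 16 chemokines tested, Ccl6 and Cxcl2 were called higher, 5 lay above the resting range and none below, and the median log2 fold change was 0.74. Of 23 fetal-like repair genes, none was called by edgeR and 1 in each direction by DESeq2, 10 lay above the resting range, and the median was 0.29.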
